A study of Mus musculus with 5 samples.

Results

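The cells described here are 72 hepatocytes of the library taken 96 h after partial hepatectomy (PHx, surgical removal of most of the liver) that were rich in transcripts of dividing cells. They were chosen by measured values, among the 771 barcodes of that library with at least 5000 unique molecular identifiers (UMIs, counts of single captured RNA molecules), 10% to 30% mitochondrial UMIs and at least 1% of UMIs from Alb, Apoa1 and Ttr. A member had at least 3 UMIs per 10000 from 10 genes together (Mki67, Top2a, Cdk1, Ube2c, Birc5, Ccnb1, Cenpf, Nusap1, Cdc20 and Tpx2), and at least 3 of these genes detected. The 565 hepatocytes with under 0.5 per 10000 served as comparison cells, and 134 hepatocytes lay in between. Each member was set beside up to 3 comparison cells of nearly the same total UMIs, which gave 216 matched cells. All expression values of the 10 genes in these cells come from the choice itself and are descriptions.

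Liver cells of C57BL/6J mice were released by perfusion, depleted of dead cells and profiled by 10x v3 droplet sequencing. There was 1 library per group: P14 (postnatal day 14, no operation), adult control, and adults operated at 8 weeks of age and sampled at 24 h, 48 h or 96 h after PHx. The labels contradict each other on the adult control, which a protocol lists among the operated mice although its title and source call it a control; sex and number of animals are not given, and a code in the descriptions sets the adult control apart from the other 4 libraries. With 1 library per group no difference between groups or between sets of cells can be tested, and the intervals given (95%, exact) cover counting error only.

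The adult liver is mostly quiescent, and after PHx its remaining hepatocytes re-enter the cell cycle. They copy DNA first, and the genes of mitosis, many of them switched on late in the cycle by the MuvB, B-Myb and FoxM1 factors, follow. Hepatocytes also divide labour along the lobule: periportal cells favour urea synthesis and gluconeogenesis, and pericentral cells favour glutamine synthesis and drug metabolism.

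The promoters of 6 genes show the elements shared by many genes of mitosis: 4 belong to the choice of cells (Cdk1, Cdc20, Top2a, Ube2c), and Prc1 and Kif11 are among the genes measured as outcomes. Each line gives 60 bases from the region just before the start of the gene, 5′ to 3′ on the gene's strand, from RefSeq on GRCm38.p6. The windows were placed on TTTGAA, whose first base lies 15 (Cdk1), 18 (Cdc20), 23 (Top2a), 29 (Ube2c), 30 (Prc1) and 19 (Kif11) bases before the start. Capitals mark TTTGAA or its reverse complement TTCAAA, the core of the cell cycle genes homology region, and CCAAT or its reverse complement ATTGG, the letters recognised by NF-Y.
Cdk1: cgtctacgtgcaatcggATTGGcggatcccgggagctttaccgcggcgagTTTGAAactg
Cdc20: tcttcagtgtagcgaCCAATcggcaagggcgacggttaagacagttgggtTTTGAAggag
Top2a: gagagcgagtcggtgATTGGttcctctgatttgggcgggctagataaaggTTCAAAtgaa
Ube2c: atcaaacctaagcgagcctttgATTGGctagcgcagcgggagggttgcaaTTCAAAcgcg
Prc1: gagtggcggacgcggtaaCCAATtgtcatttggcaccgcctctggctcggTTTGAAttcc
Kif11: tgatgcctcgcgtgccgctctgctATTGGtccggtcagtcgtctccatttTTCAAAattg
These windows lie at chr10:69352918-69352977 (minus strand, Cdk1), chr4:118437352-118437411 (minus, Cdc20), chr11:99024203-99024262 (minus, Top2a), chr2:164769850-164769909 (plus, Ube2c), chr7:80294396-80294455 (plus, Prc1) and chr19:37376313-37376372 (plus, Kif11). Each holds a CCAAT element upstream of a TTTGAA element.

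The 6 windows were picked because they hold both elements, so the whole lists give the frequency. Of 80 genes of mitosis (the 10 chosen genes and the lists of mitotic regulators, kinesins, kinetochore and chromosome structure, and cytokinesis), 68 had a RefSeq promoter, with 76 start sites. TTTGAA, searched on both strands in the 250 bases before the start, was found in 35.5% of these, in 16.1% of 31 replication promoters, in 12.5% of 32 promoters of zonation and urea cycle genes, and in 16.0% of all 32851 promoters. CCAAT was found in 64.5%, 61.3%, 37.5% and 33.8% of the same sets, and both elements together in 27.6%, 12.9%, 3.13% and 5.55%. The letters TTTCCCGC, TTTGGCGC or TTTCGCGC, forms of the E2F element, were found in 7.89% of the mitosis promoters, 29.0% of the replication promoters, none of the 32 zonation and urea cycle promoters and 1.53% of all promoters. A match describes letters, not binding, and none of the motifs was assayed.

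The 72 members made up 9.34% of the hepatocytes at 96 h (7.38% to 11.6%). By the same rule they were 0.432% (0.118% to 1.10%, 4 of 925) in the adult control, 14.6% (171 of 1170) at 24 h, 42.0% (302 of 719) at 48 h and 12.6% (265 of 2106) in P14. With every cell thinned to 5000 UMIs, the shares were 4.93% at 96 h (38 cells), 0.432%, 10.3%, 34.6% and 9.12%, in the same order. At 10000 UMIs, with shallower cells left out, they were 8.43% at 96 h (61 of 724 cells), 0.386%, 12.9%, 39.2% and 11.6%. The order of the 5 libraries was the same at both depths and without thinning, and thinning to 5000 UMIs lowered the share at 96 h by a larger proportion than those at 24 h and 48 h.

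**Figure D1:**
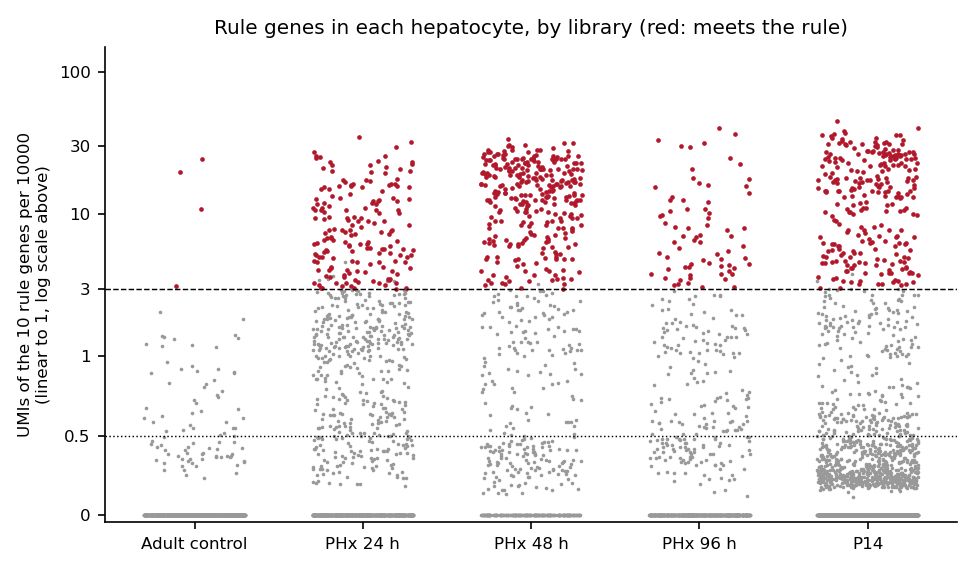
UMIs of the 10 chosen genes per 10000 UMIs in each hepatocyte (1 point per cell, random horizontal spread) of the 5 libraries, on an axis that is linear up to 1 and logarithmic above. Red cells meet the rule: 72 at 96 h, 302 at 48 h and 4 in the adult control; the dashed line marks 3 and the dotted line 0.5 per 10000.

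Members had a median of 28598 UMIs (12592 to 50676), 4720 genes and 25.8% mitochondrial UMIs. Their matched cells had a median of 28694 UMIs, 4298.5 genes and 24.9% mitochondrial UMIs, so at nearly equal depth a member held more different genes. Alb, Apoa1 and Ttr took 4.20% of the UMIs of the median member and 6.18% of the median matched cell. A further 12 hepatocyte markers that the rule did not use were all detected, at 313.964 to 624.355 per 10000 in members (median 459) and 316.456 to 902.977 (median 532) in matched cells. Barcodes of lower total UMIs, called empty droplets here, were taken by their rank in total UMIs. At 96 h they had a median of 775 UMIs, and whether they held cells or nuclei was not tested. They held 628 per 10000 of the same markers. The presence of these markers in a barcode thus does not by itself identify a hepatocyte. The word hepatocyte is used here for cells that meet the rule.

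Among the chosen genes, Mki67, a protein coating mitotic chromosomes, was detected in 71 members and Birc5, the survivin subunit of the chromosomal passenger complex, in 69. Cenpf was found in 51 members, Ccnb1 (cyclin B1) in 50, Tpx2 in 49, Cdk1 in 45, Ube2c in 44, Cdc20 in 40, Top2a in 34 and Nusap1 in 27. In the 216 matched cells, none of the 10 genes was found in more than 17 cells (Cdk1). The median member had 6 of the 10 genes and 6.96 UMIs per 10000, with a range from 3.07 to 40.2. No gap separated members from the rest. The 3 members closest to the limit had 3.07, 3.08 and 3.19 per 10000, the 3 cells closest below it had 2.88, 2.72 and 2.69, and 7 cells lay in each step of 0.5 between 2 and 4 per 10000. The set is therefore a range cut from a continuous score.

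The working name of these cells, late mitotic, was set beside counts of genes outside the choice. After thinning to 10000 UMIs, 44 of 72 members (61.1%) had at least 3 of 16 mitotic regulators, against 1 of 216 matched cells (0.463%). At least 3 of 31 replication genes were found in 58 members (80.6%) and in 44 matched cells (20.4%), and 39 members (54.2%) passed both counts. Most members thus carried replication transcripts, and 28 did not reach 3 mitotic regulators at this depth. Members were chosen for genes of mitosis and matched cells for nearly lacking them, so the mitotic counts describe the choice. The limit of 3 genes was the same for lists of 16 and 31 genes, so their shares cannot be set against each other. These counts cannot place the cells at 1 stage, so the name late mitotic is not used further. The cells are called cycle-high hepatocytes.

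Counts of the 72 members and of the 216 matched cells were summed and divided by their totals without mitochondrial and chosen genes, as CPM, counts scaled to a total of 1000000. A gene was compared when the mean of its CPM in members and matched cells was at least 10, and its log2 ratio was taken after adding 1 CPM to each side. Of 7291 genes, 537 (7.37%) were at least 2-fold higher in members and 91 (1.25%) at least 2-fold lower, or 8.61% in either direction. The ratio was above 0 in 68.6% of genes, with a median log2 ratio of 0.22. Scaling by median-of-ratios size factors instead added -0.25 to every ratio, which turned that median to -0.04 and left 325 genes higher and 214 lower.

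Hmmr, Racgap1, Ccna2 and Plk1 were among the 12 genes with the highest ratios. Hmmr, a spindle assembly protein, had 177 UMIs in 52 members (114 CPM) and 1 UMI in the matched cells, a 531-fold ratio with a counting interval of 94.0 to 21072. Racgap1, a regulator of the cleavage furrow, had 132 UMIs in 50 members and none in matched cells, and was at least 132-fold higher when 3 counts over all matched cells are taken as the floor. Ccna2 (cyclin A2) stood at 116 CPM in members and 0.861 CPM in matched cells, or 134-fold higher (51.5 to 498), and was seen in 60 members. Plk1, the kinase that drives mitotic entry and exit, had 83 UMIs against 1 (249-fold, 43.4 to 9944). The bound for Racgap1 and the ratios of genes with 1 to 3 UMIs in matched cells rest on different footings and give no order among these genes. In each case the UMIs were spread over many members, and no single member gave more than 10.8% of them.

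Others among the 12 highest ratios were Esco2 (202 UMIs in members, 4 in matched cells), which acetylates cohesin, Ckap2 (154 and 2), a spindle protein, Pbk (132 and 2), a mitotic kinase, Kif20a (128 and 2), a kinesin of cytokinesis, Pclaf (123 and 2), a PCNA-binding protein, Prc1 (132 and 3), which bundles midzone microtubules, and Aspm (67 and 0), of the spindle pole. The remaining gene was Neurl1b (67 UMIs in 28 members, 0 in matched cells), a ubiquitin ligase. Esco2, Pclaf, Aspm and Neurl1b belong to none of the lists. Aspm and Neurl1b were each at least 66.9-fold higher at the floor of 3 counts.

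Lists of genes were then read as a whole. Every one of the 13 kinesins, the motors that move and cross-link spindle microtubules, had a higher CPM in members than in matched cells. Of all compared genes, 68.6% had a ratio above 0. Together they had 551 UMIs against 15, which is 356 against 3.23 CPM, or 110-fold higher (66.2 to 198). Kif11 (72 UMIs against 1), the motor that separates the spindle poles, Cenpe (85 against 2), which carries chromosomes to the equator, and Kif4 (56 against 2) followed Kif20a in CPM, and Kif14 (9 against 0) had the fewest UMIs in members. Of the 7 kinesins with a mean of 10 CPM, all 7 were at least 2-fold higher, beside 7.37% of all genes, with a median log2 ratio of 4.70, or 5.81 with 3 counts in place of lower counts and no added CPM. Genes nearly absent from matched cells could pass the minimum only through the members, so these medians describe and do not support.

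All 29 kinetochore and chromosome structure genes had higher CPM in members, beside 68.6% of all compared genes above 0. The sum was 1879 against 116 CPM (16.2-fold, 14.7 to 17.8). Cdca3, a cell division cycle-associated protein, was the most widespread, with 353 against 9.47 CPM and UMIs in 68 of 72 members. Cenpa, the centromeric histone, stood at 143 against 11.0 CPM and Smc4, a condensin subunit, at 133 against 15.7 CPM. By cell, the list ranged from 1.51 to 32.7 UMIs per 10000 in members (median 12.8) and from 0 to 4.73 (median 0.695) in matched cells, so the ranges overlapped at their edges.

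Of 16 mitotic regulators, 15 had higher CPM in members and 1 had no UMI in either set, with 625 against 52.1 CPM in sum (12-fold, 10.4 to 13.9). Nek2, a centrosome kinase, stood at 119 against 3.01 CPM and Mad2l1, of the spindle checkpoint, at 95.5 against 5.38 CPM. Among 12 cytokinesis genes, 11 were higher and 1 had no UMI, with 669 against 195 CPM in sum (3.43-fold, 3.14 to 3.76). Both counts of higher genes stand beside 68.6% of all compared genes above 0. Of 8 compared, 7 were at least 2-fold higher, beside 7.37% of all genes. Their log2 ratios ranged from 0.50 to 6.43 with a median of 4.54, so the sum does not stand for each gene. As for kinesins, this median describes and does not support. Ect2, the exchange factor that builds the contractile ring, stood at 91.6 against 1.72 CPM. Ckap5, a microtubule polymerase, stood at 40.01 against 11.0 CPM.

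**Figure D2:**
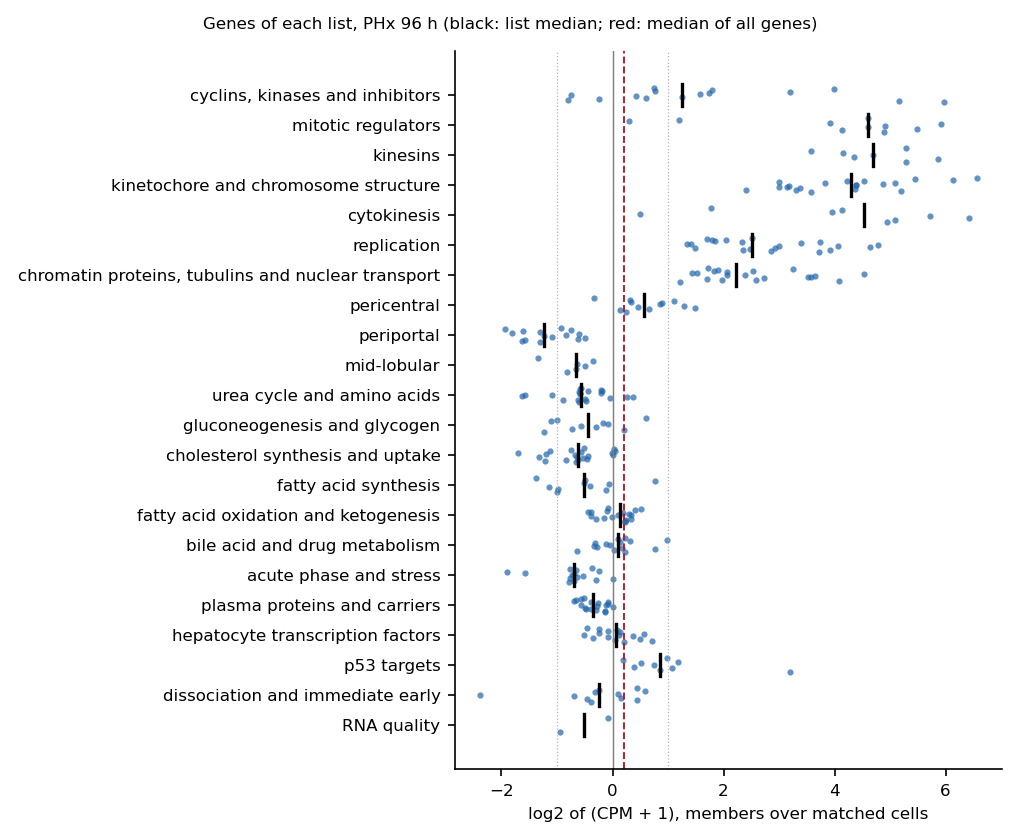
Log2 ratio of CPM (1 CPM added) in members over matched cells at 96 h for each gene with a mean of 10 CPM or more, 1 point per gene and 1 row per list. Black bars are list medians, the red dashed line is the median of all genes (0.22) and the dotted lines mark 2-fold. All plotted genes of the kinesin, kinetochore and replication rows lie right of the upper 2-fold line, beside 7.37% of all genes. Genes nearly absent from matched cells could pass the minimum only through the members, so these rows are descriptions. All 15 periportal genes lie left of 0, where 68.6% of all genes lie right of it.

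Replication genes were higher as well. All 31 had higher CPM in members, beside 68.6% of all compared genes above 0, and the sum was 1307 against 236 CPM (5.54-fold, 5.15 to 5.97). Rrm2, the ribonucleotide reductase subunit made for DNA synthesis, stood at 147 against 4.95 CPM, Rrm1 at 105 against 12.9 CPM, and Pcna, the sliding clamp, at 95.5 against 16.4 CPM. Members were uneven in this list, ranging from 0.906 to 43.4 UMIs per 10000 with a median of 5.49 and an upper quartile of 15.5. Matched cells ranged from 0 to 7.65, which overlaps with the lower members.

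Chromatin proteins, tubulins and nuclear transport factors were higher too. All 20 passed the minimum and were at least 2-fold higher, beside 7.37% of all genes, and the sum was 6642 against 1330 CPM (4.99-fold, 4.84 to 5.15). H2afz, a histone variant, was present in all 72 members at 1531 against 256 CPM. Stmn1, which destabilises microtubules, was present in all 72 at 584 against 24.3 CPM. Tubb4b, a tubulin, stood at 626 against 49.3 CPM, Ran, the nuclear transport GTPase, at 652 against 226 CPM and Hmgb1 at 609 against 262 CPM. Per cell the list took 16.0 to 74.1 UMIs per 10000 in members (median 49.0) and 1.06 to 24.9 (median 9.58) in matched cells.

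Cyclins, kinases and inhibitors did not move as 1 block: of 15 genes compared, 8 were at least 2-fold higher and none 2-fold lower, beside 7.37% and 1.25% of all genes, with a median of 1.24. The late cyclins Ccna2 and Ccnb2 (166 against 3.66 CPM), the Cdk-binding protein Cks2 (181 against 53.2 CPM) and the inhibitor Cdkn2c (77.4 against 21.7 CPM) were higher. Ccnd1, the cyclin of entry into the cycle, was lower in members, at 64.5 against 113 CPM (log2 ratio -0.80). Beside matched cells of the same zone, described below, it was 64.5 against 134 CPM (-1.04), past 2-fold, as it also is under the shift of size factors. Cdk6 stood at 26.5 against 45.0 CPM (-0.74).

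Cdkn1a, which encodes the p21 inhibitor of cyclin-dependent kinases, was higher in members. It had 95 UMIs in 37 members and 27 in 22 matched cells, or 61.3 against 5.81 CPM, a log2 ratio of 3.19. After thinning to 10000 UMIs it was found in 15 of 72 members (20.8%, 12.2% to 32.0%) and 12 of 216 matched cells (5.56%, 2.90% to 9.50%). All 12 p53 target genes had higher CPM in members, and 3 of 9 compared were 2-fold higher, Cdkn1a, Ccng1 (95.5 against 44.8 CPM) and Zmat3 (14.8 against 6.03 CPM), beside 68.6% of all genes above 0 and 7.37% 2-fold higher; the median was 0.86. Beside matched cells of the same zone the ratio of Cdkn1a was 2.99 and that of Ccng1 0.97, under 2-fold. Under size factors Cdkn1a (2.94) alone stayed 2-fold higher, with Ccng1 at 0.82 and Zmat3 at 0.92. Gdf15 differed least, at 29.0 against 25.2 CPM.

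Zone genes differed between members and matched cells. All 15 periportal genes were lower in members and 9 were at least 2-fold lower, against 1.25% of all genes. Of all genes, 68.6% were above 0, and the median of the periportal list was -1.23. Hal, which degrades histidine, stood at 130 against 406 CPM, Cyp2f2, a periportal cytochrome P450, at 354 against 873 CPM, Pck1, of gluconeogenesis, at 636 against 1496 CPM, and Gls2, the liver glutaminase, at 149 against 318 CPM. Per cell the list ranged from 2.88 to 98.5 UMIs per 10000 in members (median 35.5) and from 4.50 to 164 (median 70.5) in matched cells, which overlap widely. All 6 mid-lobular genes were lower in members too, with a median of -0.65. Of these, 1 was at least 2-fold lower, Upp2 at 136 against 345 CPM, against 1.25% of all genes.

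Of 15 pericentral genes, 14 had higher CPM in members, beside 68.6% of all genes, but of 12 compared only Oat, Slc1a2 and Cyp2a5 were 2-fold higher (7.37% of all genes were), and the median was 0.56. Oat, ornithine aminotransferase, stood at 1000.2 against 357 CPM, with 21.7% of its UMIs from 1 member, and Cyp2a5, a coumarin hydroxylase, at 131 against 60.1 CPM. Slc1a2, a glutamate transporter of the innermost pericentral cells, stood at 78.1 against 31.4 CPM, from 7 members, 1 of which gave 26.4% of the UMIs. Cyp2e1 (1523 against 1387 CPM) and Glul (203 against 172 CPM), the pericentral glutamine synthetase, were less than 2-fold apart, both ratios turn below 0 under the shift of size factors, and 1 member held 58.0% of the Glul UMIs.

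Single cells show the mix. Cyp2f2 exceeded Cyp2e1 in 21 of 72 members (29.2%, 19.0% to 41.1%) and in 134 of 216 matched cells (62.0%, 55.2% to 68.5%). At 24 h the same shares were 36.3% of cells that met the rule and 54.8% of their matched cells, and at 48 h 29.1% and 28.4%. In P14, where Cyp2f2 was at 0 in the median cell, they were 1.13% and 1.44%.

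Each member was then matched only to comparison cells of its own side, that is, with the same of Cyp2f2 and Cyp2e1 higher (72 members, 196 cells). In that comparison 503 genes (6.9%) were 2-fold higher and 74 (1.01%) lower. The pericentral median was 0.11, and none of 12 pericentral genes was 2-fold higher. The ratio of Oat was 0.66, that of Cyp2a5 0.31 and that of Slc1a2 0.30, with a counting interval of -0.02 to 0.63. Cyp2e1, at 1523 against 2192 CPM (-0.53), and Glul, at 203 against 353 CPM (-0.80), turned from higher to lower in members. The periportal median was -0.83, with all 15 genes lower and 4 of them 2-fold. Cyp2f2, which defines the side, stood at 354 against 520 CPM (-0.56) and Pck1 at 636 against 1249 CPM (-0.97), both now under 2-fold.

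**Figure D3:**
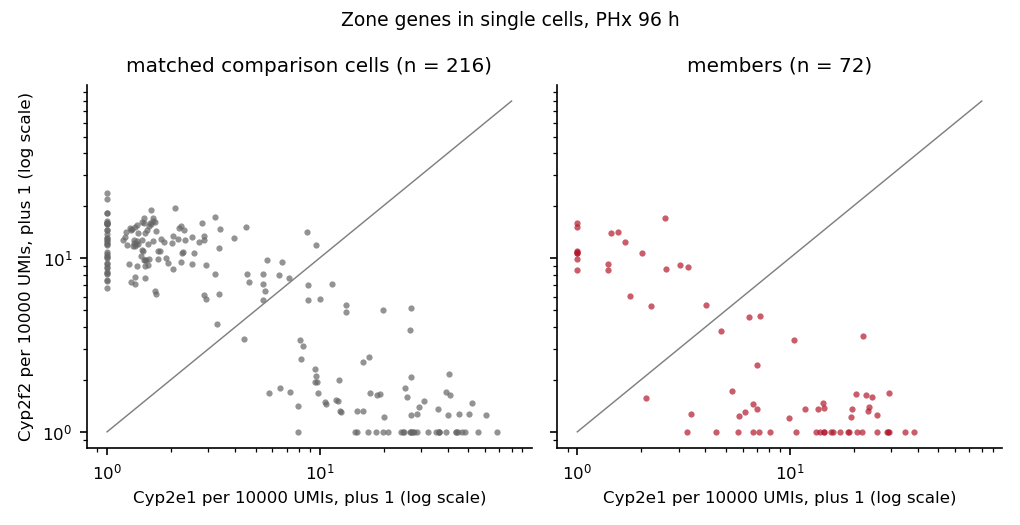
Cyp2e1 (horizontal) and Cyp2f2 (vertical) in single hepatocytes at 96 h, as UMIs per 10000 plus 1 on log axes, for the 216 matched cells (left) and the 72 members (right); the line marks equal values. Cells above the line are 62.0% of the matched cells and 29.2% of the members.

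Members were also split by side. Genes nearly absent from comparison cells could pass the minimum only through the members, so the medians of division lists are a description. Mitotic regulators had medians of 4.50 on the Cyp2e1 side (51 members, 133 cells) and 4.55 on the Cyp2f2 side (21 members, 63 cells), and replication genes 2.11 and 3.34. Periportal genes had medians of -0.88 and -0.47 and mid-lobular genes -0.83 and -0.21. Cholesterol synthesis genes had medians of -0.88 and -0.29, beside 0.19 and 0.17 for all genes. The difference between the sides was not tested.

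Liver metabolism was lower in part of its branches. In the urea cycle and amino acid list, 18 of 20 genes had lower CPM in members, with a median of -0.57, beside 68.6% of all genes above 0. Of these, 3 (Hal, Sds and Gls2, which are also periportal genes) were 2-fold lower, beside 1.25% of all genes. Matched within zone, Hal stayed 2-fold lower (-1.16), while Sds, at 107 against 191 CPM (-0.83), and Gls2 (-0.76) did not. Cps1, the entry enzyme of the urea cycle, stood at 2100 against 3181 CPM, and Sds, serine dehydratase, at 107 against 321 CPM. Nags, which makes the activator of Cps1, stood at 101 against 78.1 CPM. Per cell, the list ranged from 35.9 to 168 UMIs per 10000 in members (median 89.0) and from 54.9 to 219 in matched cells (median 124).

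Cholesterol synthesis and uptake had a median of -0.63, with 17 of 20 genes lower and 5 of them at least 2-fold, beside 1.25% of all genes 2-fold lower and 68.6% above 0. Mvd stood at 8.39 against 29.7 CPM, Insig1, a sterol-regulated protein of the endoplasmic reticulum, at 274 against 595 CPM, Msmo1 at 151 against 349 CPM and Lss at 20.6 against 53.2 CPM. Fatty acid synthesis had a median of -0.51, with Acly (192 against 425 CPM) and Thrsp (119 against 311 CPM) 2-fold lower among 10 genes. In gluconeogenesis and glycogen metabolism (median -0.43), Pck1 and Slc37a4 (42.6 against 93.4 CPM) were 2-fold lower among 10. Both counts of 2 in 10 stand beside 1.25% of all genes, and Pck1, also a periportal gene, was under 2-fold within zone (-0.97).

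None of 18 genes of fatty acid oxidation and ketogenesis and none of 15 compared of bile acid and drug metabolism was 2-fold apart, where 8.61% of all genes were. Their medians were 0.14 and 0.10 and turned to -0.12 and -0.16 under size factors and to -0.06 and -0.23 when matched within zone. Gsta3, a glutathione transferase, stood at 1857 against 1736 CPM, a ratio that turned below 0 under size factors and within zone. Cyp3a11, a drug-metabolising P450, was higher at 4398 against 3545 CPM, a ratio of 0.31 that was -0.06 when matched within zone.

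The list of acute phase and stress genes and that of plasma proteins and carriers were mostly lower in members. Acute phase genes had a median of -0.69, with 14 of 15 lower, and plasma proteins and carriers -0.34, with 17 of 18 lower but none 2-fold, beside 68.6% of all genes above 0 and 1.25% 2-fold lower. Under size factors these medians were -0.94 and -0.60, and that of all genes -0.04. Only the 2 metallothioneins among the 15 acute phase and stress genes were 2-fold lower, Mt1 at 101 against 305 CPM and Mt2 at 16.8 against 65.0 CPM. None of the other genes of that list was 2-fold lower. Hepatocyte transcription factors had a median of 0.06 (-0.20 under size factors) with none 2-fold apart; Hnf4a stood at 320 against 278 CPM, a ratio of 0.20 that turned to -0.05 under size factors, and Cebpb at 321 against 247 CPM. Ribosomal protein genes had a median of 0.27 over 84 genes, near the 0.22 of all genes. None of them was 2-fold higher, where 7.37% of all genes were. Under size factors their median was 0.02.

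The other genes with the lowest ratios were Sult5a1 (5 UMIs in members, 80 in matched cells), a sulfotransferase, Hsd17b6 (75 and 871), of steroid metabolism, Aldh1b1 (98 and 1045), a mitochondrial aldehyde dehydrogenase, Rasgrp2 (7 and 76), Ctsc (43 and 403), the lysosomal cathepsin C, and the unnamed loci AC135964.2 (17 and 176) and F830016B08Rik (7 and 78). Hsd17b6, Aldh1b1 and Ctsc also belong to the periportal list, and within zone they stood at 48.4 against 126 CPM, 63.2 against 128 CPM and 27.7 against 51.1 CPM, the last under 2-fold. The matched cells hold 3 times as many cells as the members. Of the remaining ones of the 12 lowest, Hspa1b (12 and 208 UMIs) and Spp1 (58 and 548) each had most UMIs of 1 side in a single cell: 1 matched cell held 85.6% of the Hspa1b UMIs of the matched cells, and 1 member held 77.6% of the Spp1 UMIs of the members. With 1 comparison cell per member the ratio of Hspa1b turned from -2.39 to 0.26. Malat1, a nuclear RNA, was lower in members at 1665 against 3194 CPM, while Neat1, another nuclear RNA, stood at 527 against 556 CPM.

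Across the range of the score, the kinesin sum was higher and the periportal and urea cycle sums mostly lower at higher scores. Hepatocytes were split into ranges of 0 to 0.5, 0.5 to 1.5, 1.5 to 3, 3 to 6 and 6 or more UMIs of the chosen genes per 10000 (565, 101, 33, 32 and 40 cells). Kinesins stood at 4.38, 11.9, 37.1, 115 and 549 CPM in sum, and Stmn1 at 19.9, 181, 430, 516 and 638 CPM, so Stmn1 was already high in cells below the limit for members. Hmgb2 stood at 13.9, 23.2, 48.3, 43.5 and 387 CPM, high in the top range. Periportal genes stood at 10018, 7657, 6678, 4793 and 4804 CPM, and the urea cycle list at 17487, 15268, 14447, 11605 and 11226 CPM. Cdkn1a stood at 5.32, 19.1, 25.8, 44.9 and 74.4 CPM and Ccnd1 at 106.5, 116, 69.3, 63.8 and 65.1 CPM. Glul followed no order, at 179, 487, 59.6, 84.1 and 298 CPM. These ranges share the library and were formed from the score itself.

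**Figure D4:**
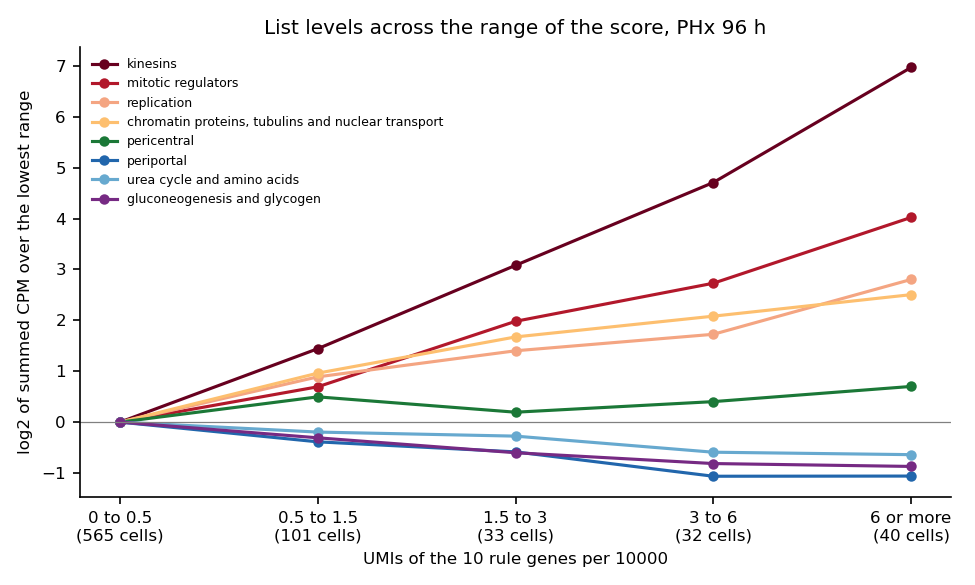
Summed CPM of 8 lists in 5 ranges of the score at 96 h, as log2 over the range of 0 to 0.5 (horizontal axis: UMIs of the chosen genes per 10000, with the number of cells). Kinesins stand at 549 CPM in the top range against 4.38 CPM in the lowest, and periportal genes at 4804 against 10018 CPM.

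Cells that met the rule in the other libraries were compared with matched cells of their own library. At 24 h there were 171 and 456 cells, in P14 265 and 766, and at 48 h 263 of the 302 could be matched, to 289 comparison cells. The genes at least 2-fold higher and lower were 6.03% and 0.238% at 24 h, 5.53% and 0.434% at 48 h and 6.8% and 0.0723% in P14. Mitotic regulators had medians of 4.60 (96 h), 3.85 (24 h), 4.13 (48 h) and 4.75 (P14), and replication genes 2.51, 1.97, 1.27 and 2.47. With 3 counts in place of lower counts and no added CPM, the mitotic regulator medians were 5.25, 4.38, 5.33 and 6.43. Which of 96 h and 48 h stood higher thus depends on the added CPM. Genes nearly absent from matched cells could pass the minimum only through the cells that met the rule, so these medians are descriptions. Pcna stood at 80.1 against 34.6 CPM at 48 h, beside 95.5 against 16.4 CPM at 96 h, so at 48 h the level was lower in the cells that met the rule and higher in their matched cells.

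After thinning to 10000 UMIs, at least 3 replication genes were found in 99.4% of the cells that met the rule at 24 h, 86.2% at 48 h, 86.4% in P14 and 80.6% at 96 h (157, 290, 264 and 72 cells; shallower cells were left out). At least 3 mitotic regulators were found in 73.2%, 78.3%, 66.7% and 61.1%. Both shares were lowest at 96 h.

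Outside the division lists the medians differed in size and partly in sign between libraries. With the values ordered as 96 h, then 24 h, then 48 h, then P14, periportal genes had medians of -1.23, -0.77, -0.22 and -0.06, and acute phase genes -0.69, -0.35, -0.19 and -0.38. Urea cycle and amino acid genes had -0.57, -0.38, -0.24 and -0.03, cholesterol synthesis -0.63, -0.44, -0.71 and 0.13, and pericentral genes 0.56, 0.30, 0.01 and -0.23. The p53 targets had 0.86, 0.36, 0.52 and 0.14. For Cdkn1a the ratios, so ordered, were 3.19, 1.09, 1.01 and 0.55; at 48 h it stood at 99.05 CPM in cells that met the rule and 48.7 CPM in their matched cells, against 61.3 and 5.81 CPM at 96 h. Mt1 stood at 7189 against 7055 CPM at 48 h (0.03), and the ratio of Tubb4b was 1.08 at 24 h, 2.49 at 48 h and 3.87 in P14 against 3.64 at 96 h. Matched within zone at 96 h, the pericentral median was 0.11, below the 0.30 at 24 h, and the periportal median -0.83; the other libraries were not matched within zone. With 1 library each, differences between libraries were not tested.

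**Figure D5:**
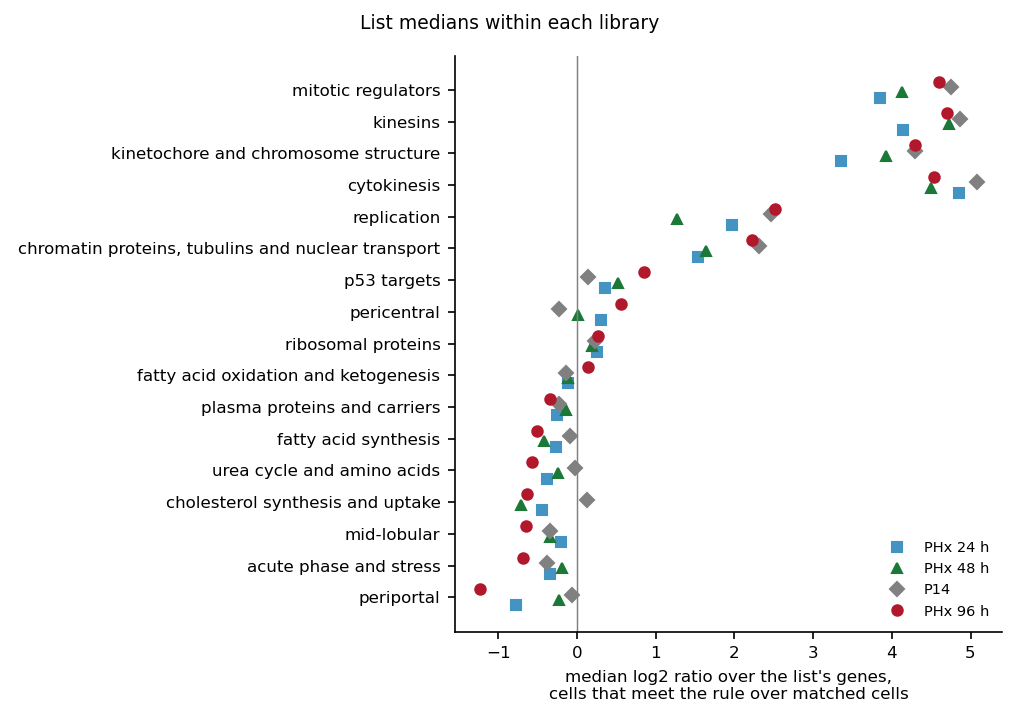
Median log2 ratio over the genes of each list in cells that met the rule over matched cells of the same library, 1 symbol per library. The red circles (96 h) lie furthest left for periportal genes (-1.23) and acute phase genes (-0.69) and furthest right for p53 targets (0.86) and pericentral genes (0.56). Matched within zone, the 96 h medians were 0.11 for pericentral and -0.83 for periportal genes.

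Markers of other cell types differed by class, and 16 of 72 members and 50 of 216 matched cells had 2 markers of another class, erythroid markers left out. Of 9 macrophage markers 8 were at 0, with 1 UMI in all 72 cells, and of 9 endothelial markers 5 were at 0 (Pecam1, Clec4g, Kdr, Ptprb and Dnase1l3), with up to 2.27 UMIs per 10000. In T or NK markers 4 of 9 were at 0, and 1 member reached 4.50 per 10000. Endothelial markers summed to 0.116 per 10000 in members and 0.0735 in matched cells, T or NK markers to 0.0579 and 0.0278, and macrophage markers to 0.0048 and 0.0033. Monocyte or dendritic markers, with Ccr2, Itgax and Siglech at 0 in both sets, summed to 1.92 per 10000 in members (398 UMIs, 10 members with 2 markers), 1.77 in matched cells and 1.94 in empty droplets. B cell markers summed to 0.0434 in members and 0.0555 in matched cells, neutrophil markers to 0.106 and 0.0882, and stellate or fibroblast markers to 0.0386 and 0.118. Erythroid markers summed to 6.65 per 10000 in members and 1.56 in matched cells, with medians of 1.64 and 1.44, and 59 members and 161 matched cells had 2 of them; 2 members held at least 20 per 10000 (highest 180), and without them 540 genes were 2-fold higher and 95 lower. Of 5 cholangiocyte markers 3 were at 0 in both sets, and the sum was 0.458 in members and 1.15 in matched cells. The 105 barcodes with the highest Scrublet doublet scores were marked among 3624 scored barcodes. This share (2.90%) was set beforehand from the number of barcodes. The marked barcodes included 1 member and 4 matched cells, which were kept.

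In empty droplets of the 96 h library the chosen genes made up 0.907 UMIs per 10000, against 0.0648 in comparison cells and a lowest value of 3.07 in members. In the other libraries the empty droplets held 0.155 (adult control), 2.31 (24 h), 6.68 (48 h) and 2.37 (P14) per 10000. No barcode of a 96 h hepatocyte was shared with hepatocytes of another library. The part of free RNA in the score of single cells was not tested.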

How the data were processed

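For each of 5 libraries the authors deposited a sparse matrix of whole-number UMI counts per gene and barcode, without normalization, with 31053 genes and 6794880 barcodes. Per the file headers they were written by software version 3.0.2. The submitters' processing notes name bcl2fastq 2.17.1.14, Cell Ranger, Seurat 3.1 and mm10, without roles. Total counts per library ranged from 80927744 to 136110607 UMIs, and barcodes with at least 1000 UMIs from 5015 (48 h) to 68549 (adult control), with 19508 at 96 h.

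Cells were chosen by the stated rule, and matching used up to 3 unused comparison cells within 0.1 log10 of a member's total UMIs. The members and gene lists were chosen with earlier results of these data known. CPM excluded 13 mitochondrial and the 10 chosen genes. Genes were named by rule among those with a mean of 10 CPM: the 12 highest and 12 lowest ratios with a counting interval past 0, and per list up to 4 genes of highest CPM among those 2-fold apart, otherwise the 2 of highest CPM. Other genes were picked after their values were seen: Ccnd1, Cdk6, Gdf15, Cyp2e1, Glul, Cps1, Nags, Stmn1 and Hmgb2. A few genes that the rule names are not reported here. Ratio intervals are exact binomial (Clopper-Pearson) intervals at 95%. Thinning drew UMIs without replacement (seed 1). Scrublet (scanpy 1.11.5) gave doublet scores. The highest scores, at a set rate of 0.8% per 1000 barcodes, were marked, and the marked cells were kept in the reported values. The comparison was run on simulated sums with counting error alone, which hold no variation between cells. Alternatives covered matching, pseudocount, filter, scaling, thinning, score and mitochondrial limits. Python 3.11.15, numpy 2.4.6, scipy 1.17.1 and pandas 2.3.3 were used.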

Additional observations from a re-analysis of the deposited data

Results flagged for a closer look

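The choice of cells left out 995 barcodes of the 96 h library with 30% to 40% mitochondrial UMIs that met the conditions on total UMIs and on Alb, Apoa1 and Ttr. Of these, 65 (6.53%, 5.08% to 8.25%) met the conditions on the chosen genes, against 0 of 362 in the adult control, where 3 counts would be 0.829% and the exact upper limit is 1.01%. With the limit at 40%, 498 genes were 2-fold higher and 62 lower. The choice also left out barcodes that met the same conditions at other mitochondrial shares. At 96 h, 14 of 639 such barcodes (2.19%) met the conditions on the chosen genes at 0% to 5%. So did 2 of 45 (4.44%) at 5% to 10% and 16 of 706 (2.27%) at 40% to 100%. In the adult control these were 0 of 144 (upper limit 2.53%), 0 of 6 (45.9%) and 2 of 139 (1.44%). The share of 9.34% thus covers only the 771 barcodes inside the window.

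Several named genes had counting intervals on opposite sides of 0 at 96 h and in another library, each as log2 ratio of cells that met the rule over matched cells; the differences between libraries were not tested. Against 24 h these were Apoc1 (-0.14 at 96 h and 0.10 at 24 h), Fabp1 (-0.078 and 0.066), Hnf4a (0.20 and -0.24) and Cebpb (0.38 and -0.19). Against 48 h they were Cyp3a11 (0.31 and -0.21), Gsta3 (0.10 and -0.34), Mt1 (-1.58 and 0.03), Cebpb (0.38 and -0.18) and Malat1 (-0.94 and 0.22). Against P14 they were Spp1 (-1.63 and 4.60), Ctsc (-1.61 and 0.51), Gls2 (-1.09 and 0.10), Cyp3a11 (0.31 and -0.16) and Gsta3 (0.10 and -0.24). Ratios of at least 2-fold within a library were those of Mt1, Spp1, Ctsc and Gls2 at 96 h and of Spp1 in P14; the others were under 2-fold. At 96 h, 1 member held 77.6% of the Spp1 UMIs of the members. The sign at 96 h itself turned for Hnf4a (-0.052) and Gsta3 (-0.16) under size factors and for Cyp3a11 (-0.056) and Gsta3 (-0.19) within zone. That of Fabp1 turned without matching (0.0085) and without cells with markers of another class (0.0056).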

How the results depend on the processing

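No paired analysis was possible because each group has 1 library. The count of genes 2-fold higher and lower (537 and 91) was 290 and 35 with 10 CPM added, 138 and 33 with a mean of at least 50 CPM, 1190 and 406 with no filter on low values, 325 and 214 under median-of-ratios size factors and 974 and 328 after thinning to 5000 UMIs. The share of members (9.34%) was 5.88% with a mitochondrial limit of 15% (1 of 17 cells), 5.84% with a score of at least 5, 7.26% with at least 5 genes detected and 4.93% thinned. The list medians that moved beyond the interval of the median over genes were kinesins (2.15), kinetochore genes (2.46) and replication (1.69) with 10 CPM added, kinetochore genes (3.24) with at least 50 CPM, urea cycle genes without matching (-0.65) and under size factors (-0.83), cholesterol (-0.88) and acute phase (-0.94) under size factors, pericentral genes within zone (0.11), cyclins with at least 50 CPM (3.46), plasma proteins under size factors (-0.60) and ribosomal proteins without matching (0.34) and under size factors (0.018). The median of all genes moved, between 0.15 and 0.23, under 6 further settings. Signs turned for the median of all genes (-0.039), Gsta3 (-0.16) and Hnf4a (-0.052) under size factors, for Gsta3 (-0.19) and Cyp3a11 (-0.056) within zone, for Cyp2e1 (-0.53) and Glul (-0.80) within zone and also under the size-factor shift of -0.25, and for Fabp1 without matching (0.0085) and without cells with markers of another class (0.0056). Of the list medians near 0, those of fatty acid oxidation turned to -0.12 under size factors, -0.036 thinned and -0.063 within zone, and of bile acid and drug metabolism to -0.16 under size factors, -0.009 with a score of at least 5 and -0.23 within zone. The median of hepatocyte transcription factors turned under several settings, to -0.20 at the lowest. Hspa1b was 0.26 with 1 comparison cell per member, 0.19 matched also on mitochondrial share, 0.19 without cells with markers of another class and 0.13 without erythroid-high cells. Size factors add the same shift to every ratio, and the causes of the other changes were not tested. Mitochondrial limits of 20% and 15% left 4 and 1 members, so genes and lists were not compared there, and no kinesin had a mean of 50 CPM. The limit of 40%, matching within zone and the removal of erythroid-high cells were chosen after seeing the data.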
